A study of Rattus norvegicus with 48 samples.

Results

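RNA on tagged ribosomes was compared between withdrawal day 40 and withdrawal day 1 in A2a neurons of the nucleus accumbens, using 16 of the 48 libraries of the series, chosen by their sample titles. The 8 day 40 libraries and the 8 day 1 libraries came from A2a:Cre rats that had self-administered cocaine for 10 sessions and were killed 40 days or 1 day after the last session. A further 8 libraries from A2a:Cre rats that took saline and were killed at day 1 are given as a reference level, and the series has no saline rats at day 40. The 8 day 40 and 8 day 1 libraries of D1:Cre rats with the same cocaine history are used for the comparison between neuron types. The rats were adults of either sex, with the sex of each library not given in the labels, and ribosomes were pulled down with antibodies to green fluorescent protein from punches of the nucleus accumbens. The labels do not describe the tagged construct, and its driver is the A2a:Cre or D1:Cre genotype.

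The nucleus accumbens, in the ventral striatum, receives dopamine from the midbrain and glutamate from cortex, amygdala and hippocampus. Its principal cells are medium spiny neurons, and those of the indirect pathway carry the adenosine A2a receptor, the dopamine D2 receptor and the opioid peptide precursor proenkephalin, while those of the direct pathway carry the dopamine D1 receptor and prodynorphin. Cue-induced cocaine seeking in rats grows over weeks of withdrawal, which is called incubation of craving, and the study addressed the RNA under translation that accompanies it. In translating ribosome affinity purification (TRAP), the RNA is taken from the pulled-down ribosomes of 1 cell class, and RNA of neighbouring cells comes along at a lower level.

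Library totals ran from 35.9 to 55.1 M counts at day 40 and from 28.0 to 42.9 M in 7 of the day 1 libraries. Replicate 7 of day 1 held 5.3 M counts, so results are given with and without it. Levels are given in CPM, the count scaled to the size of its library, and 1 CPM stood for about 5.3 counts in replicate 7 and for about 28.0 counts or more in the other libraries. The A2a label held in the markers. Drd2, the dopamine D2 receptor, lay between 567 and 741 CPM at day 40 and between 571 and 703 CPM at day 1, against 54.3 to 131 CPM over the 16 D1 libraries. Drd1, the dopamine D1 receptor, lay at 36.5 to 52.9 CPM at day 40 and 32.3 to 46.6 CPM at day 1 in the A2a libraries, below the 96.9 to 258 CPM of the D1 libraries. The Y-linked Kdm5d was at 0 in 4 of the 8 libraries of day 40 and in 4 of the 8 of day 1, replicates 5 to 8 in either group, and in 2 of the 8 saline libraries, replicates 6 and 8. The cocaine groups were thus matched in this transcript and the saline group was not, and no term for sex was fitted. In the sample descriptions a middle number is 88 for every A2a day 40 library and 85 for every D1 day 40 library. For the cocaine day 1 libraries of both types it is 89, 91 or 92. Its meaning is not given, and it cannot be told apart from withdrawal day in either neuron type. At day 40 it also cannot be told apart from neuron type, so the comparison between neuron types shares this limit.

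Few genes passed the threshold for a difference between day 40 and day 1 in A2a neurons. Of 15580 genes tested with edgeR's quasi-likelihood model over all 48 libraries, 41 passed an adjusted p of 0.05 (0.263%), of which 17 rose (0.109%) and 24 fell (0.154%). Without replicate 7, 35 of 15683 genes passed (0.223%), 14 rising (0.0893%) and 21 falling (0.134%). An unadjusted edgeR p under 0.05 was reached by 1641 of the 15580 genes, and by 1515 genes without replicate 7. The calls made with and without that library shared 22 genes, 12 that rose and 10 that fell, and 16 of them carry a name in the deposited table. These 22 changes were mostly small, since 19 lay within 1 log2 unit and 12 within 0.5. The day 40 and day 1 libraries did not overlap in CPM for 11 of the 15580 genes (0.0706%), and 5 of these are among the 22, among them Cbx7, Tnk2, ND4 and Lyrm7. When only the 16 libraries of the comparison were fitted, so that the spread came from fewer samples, 5 genes passed, among them Cbx7, Tnk2, ND4 and LOC680121.

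Cbx7 had the smallest adjusted p in the fit of 48 libraries, where Tnk2 had it without replicate 7 and ND4 when only the 16 libraries were fitted (adjusted p = 1.212e-05, beside 0.0409 for Cbx7, edgeR). It encodes a chromobox protein of Polycomb repressive complex 1, which binds methylated histone H3 and takes part in gene silencing. Cbx7 was lowest at 84.8, had a median of 89.5 and was highest at 94.3 CPM at day 40, against 66.8, 73.2 and 83.5 CPM at day 1 and 71.1, 76.9 and 84.9 CPM in saline rats. Each day 40 library was thus above each day 1 library, while the highest saline value reached the lowest of day 40. The log2 difference between day 40 and day 1 was 0.29 ± 0.044 (SE; adjusted p = 0.000645, edgeR), or 0.27 without replicate 7 (adjusted p = 0.00223). The group means were 89.6 ± 3.23 CPM at day 40 and 73.3 ± 5.75 CPM at day 1 (SD, n = 8 each). Cbx7 was the 1 gene that passed among 39 tested chromatin regulators, beside 0.263% of all genes. The median log2 difference of the list was −0.02 with 17 members above 0, and 0.02 with 26 above 0 without replicate 7. Over all genes tested the median was 0.0003, or 0.005 without replicate 7. Ehmt2, a histone H3 methyltransferase, came next in that list at 0.21 (adjusted p = 0.0901), followed by Ezh1, a Polycomb repressive complex 2 methyltransferase, at 0.15 (adjusted p = 0.118).

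Tnk2, which encodes a non-receptor tyrosine kinase also called ACK1, rose with the next smallest adjusted p over the 48 libraries. Its lowest, median and highest values were 207, 234 and 258 CPM at day 40, 170, 181 and 198 CPM at day 1, and 192, 204 and 241 CPM in saline rats. The cocaine groups did not overlap, and the saline libraries spanned the gap between them. The log2 difference was 0.35 ± 0.056 (adjusted p = 0.000733, edgeR), and 0.36 without replicate 7 (adjusted p = 0.0021).

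The sequences before the starts of Cbx7 and Tnk2 are shown because their calls had the smallest adjusted p with all libraries and without replicate 7. Each is the 250 bases upstream of the first start listed for the gene in RefSeq's GRCr8 build. That is a later build than the one the counts were made on. The windows lie at chr7:113358347-113358596 on the minus strand for Cbx7 and chr11:81659075-81659324 on the minus strand for Tnk2. They are written 5′ to 3′ with CG dinucleotides in capitals.
Cbx7: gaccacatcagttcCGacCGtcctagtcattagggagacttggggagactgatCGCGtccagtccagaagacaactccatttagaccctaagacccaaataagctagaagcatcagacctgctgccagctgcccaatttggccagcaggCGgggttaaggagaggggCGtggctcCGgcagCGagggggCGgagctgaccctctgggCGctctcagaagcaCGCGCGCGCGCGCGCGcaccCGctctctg
Tnk2: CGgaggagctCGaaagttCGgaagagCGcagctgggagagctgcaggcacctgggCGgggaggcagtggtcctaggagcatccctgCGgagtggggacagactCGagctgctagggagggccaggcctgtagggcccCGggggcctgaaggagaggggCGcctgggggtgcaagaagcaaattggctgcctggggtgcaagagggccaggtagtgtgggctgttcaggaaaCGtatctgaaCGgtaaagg
The Cbx7 window held 19 CG dinucleotides and the Tnk2 window 11, where the 33469 RefSeq windows had a median of 5 and quartiles of 2 and 15. Of 31 named genes called with or without replicate 7, 15 had a RefSeq window. On either strand, the E-box CACGTG stood in 0 of these 15 genes and in 5.59% of all windows. The cAMP response element TGACGTCA was found in 1 of the 15, Tubb2a, and in 1.59% of all windows. The endoplasmic reticulum stress element (0.0657% of all windows), the heat shock element (0.663%) and the interferon-stimulated element (3.41%) were found in 0 of the 15.

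The other named rises that passed with and without replicate 7 are given gene by gene. Capn1, the large subunit of the calcium-activated protease calpain 1, was at 3.73, 6.11 and 8.13 CPM (lowest, median and highest) at day 40 and at 2.39, 3.48 and 5.05 CPM at day 1. Of the day 40 libraries, 7 lay above the highest day 1 value, and the log2 difference was 0.78 ± 0.15 (adjusted p = 0.00642, edgeR). Disp3, a membrane protein of the Dispatched family, was at 4.07, 5.92 and 7.79 CPM at day 40 and at 2.01, 3.82 and 4.58 CPM at day 1, a log2 difference of 0.82 ± 0.17 (adjusted p = 0.0088). Its highest day 1 value was that of replicate 7, and the 7 other day 1 libraries reached 4.14 CPM. Rasa3, a GTPase-activating protein for Ras and Rap, was at 24.3, 28.0 and 35.5 CPM at day 40 and at 18.1, 20.7 and 25.3 CPM at day 1, which is 0.42 ± 0.090 on the log2 scale (adjusted p = 0.016). That call was lost without day 40 replicate 1 or without day 40 replicate 3. Ppp1r37, a regulatory subunit of protein phosphatase 1, was at 179, 212 and 219 CPM at day 40 and at 158, 168 and 196 CPM at day 1 (log2 difference 0.26, adjusted p = 0.016). Gpc1, the cell-surface heparan sulphate proteoglycan glypican 1, was at 123, 141 and 154 CPM at day 40 and at 117, 120 and 125 CPM at day 1 (0.22, adjusted p = 0.0188). It was chosen for mention after its values were seen. Cys1, the ciliary membrane protein cystin 1, was at 14.9, 21.8 and 28.5 CPM at day 40 and at 11.5, 15.7 and 18.8 CPM at day 1 (0.50 ± 0.11, adjusted p = 0.0191), and its call was lost without any of 3 libraries, which were day 40 replicates 4 and 8 and day 1 replicate 4.

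Wdtc1, an adaptor of a ubiquitin ligase, rose in A2a neurons and differed in its day effect from D1 neurons. Its values were 137, 153 and 165 CPM at day 40 and 115, 129 and 138 CPM at day 1, with 7 of the day 40 libraries above each day 1 library (log2 difference 0.24 ± 0.052, adjusted p = 0.0151, edgeR). In D1 neurons Wdtc1 was at 118, 134 and 147 CPM at day 40 and 126, 140 and 165 CPM at day 1, and the difference between the neuron types was 0.34 ± 0.073 on the log2 scale (adjusted p = 0.0409 for the interaction, which did not pass when only the groups compared were fitted). The A2a call was lost without day 40 replicate 1.

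LOC680121, annotated in the deposited table as similar to heat shock protein 8, showed the largest named rise. It was at 3.14, 5.43 and 6.93 CPM at day 40 and at 0.381, 1.41 and 3.23 CPM at day 1, with 7 of 8 day 40 libraries above each day 1 library, and the log2 difference was 1.64 ± 0.31 (adjusted p = 0.00642, edgeR). The lowest day 1 value was that of replicate 7, and without it the difference was 1.54 (adjusted p = 0.0153). As a near copy of Hspa8, a constitutive cytosolic chaperone, its count is uncertain, since reads could be split between copies. Hspa8 itself had 1506, 1785 and 2301 CPM at day 40 and 1358, 1554 and 1870 CPM at day 1, and its log2 difference of 0.24 did not pass (adjusted p = 0.14). ENSRNOG00000030614, which has no name in the table, was at 4.57, 6.66 and 9.37 CPM at day 40 and at 1.86, 3.58 and 4.61 CPM at day 1 (0.97 ± 0.18, adjusted p = 0.00642). It was chosen after its values were seen.

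ND4, a mitochondrially encoded subunit of respiratory complex I, was the 1 gene that passed of the 13 mitochondrially encoded genes tested, beside 0.263% of all genes. It was lowest at 45.0, had a median of 62.1 and was highest at 71.9 CPM at day 40, against 28.5, 31.1 and 36.0 CPM at day 1 and 37.4, 48.7 and 81.0 CPM in saline rats. The day 40 and day 1 libraries were wide apart, and the saline libraries were all above the day 1 libraries and reached past those of day 40. The log2 difference was 0.94 ± 0.20 (adjusted p = 0.0192, edgeR), and 0.93 without replicate 7 (adjusted p = 0.0442). It did not pass without day 40 replicate 1. The other mitochondrially encoded genes lay between −0.78 and 0.12, and 7 of the 13, ND4 included, were above 0. ND5, another complex I subunit, was at 862, 1218 and 1470.4 CPM at day 40 and 879, 1065 and 1842 CPM at day 1, a log2 difference of 0.09 (adjusted p = 0.893). COX1, a subunit of respiratory complex IV, differed by 0.07 (adjusted p = 0.915) and ATP8, a subunit of ATP synthase, by −0.78 (adjusted p = 0.128). Counts of ND4 and ATP8 are uncertain where nuclear copies or overlapping genes of the mitochondrial genome share their reads.

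Named falls that passed with and without replicate 7 included Lyrm7, Mtch2 and RGD2320734. Lyrm7, an assembly factor of respiratory complex III, was at 29.7, 37.3 and 38.9 CPM at day 40 and at 40.2, 42.7 and 51.0 CPM at day 1, with no overlap (log2 difference −0.27 ± 0.054, adjusted p = 0.00748, edgeR). Mtch2, an outer membrane protein of mitochondria, was at 48.6, 50.8 and 59.2 CPM at day 40 and at 53.8, 60.2 and 69.5 CPM at day 1. Of the day 40 libraries, 6 lay below each day 1 library, and the log2 difference was −0.22 ± 0.043 (adjusted p = 0.00642). RGD2320734, annotated as a complex III subunit 9-like gene, was at 4.83, 6.44 and 8.11 CPM at day 40 and at 6.29, 9.99 and 17.4 CPM at day 1 (−0.72 ± 0.15, adjusted p = 0.0125). That call was lost without day 1 replicate 1, the library with the highest value. Of 34 nuclear-encoded respiratory chain genes, none passed, 0 at either sign, beside 0.263% of all genes tested. Their log2 differences ran from −0.16 to 0.11. RGD1562404, annotated as similar to ribosomal protein S18 and uncertain as a copy, was at 0.581, 0.705 and 1.03 CPM at day 40 and 0.723, 1.39 and 7.34 CPM at day 1 (−1.46, adjusted p = 0.0203), and it was chosen after its values were seen. Of the 10 falls among the 22, 5 were genes without a name.

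**Figure D1:**
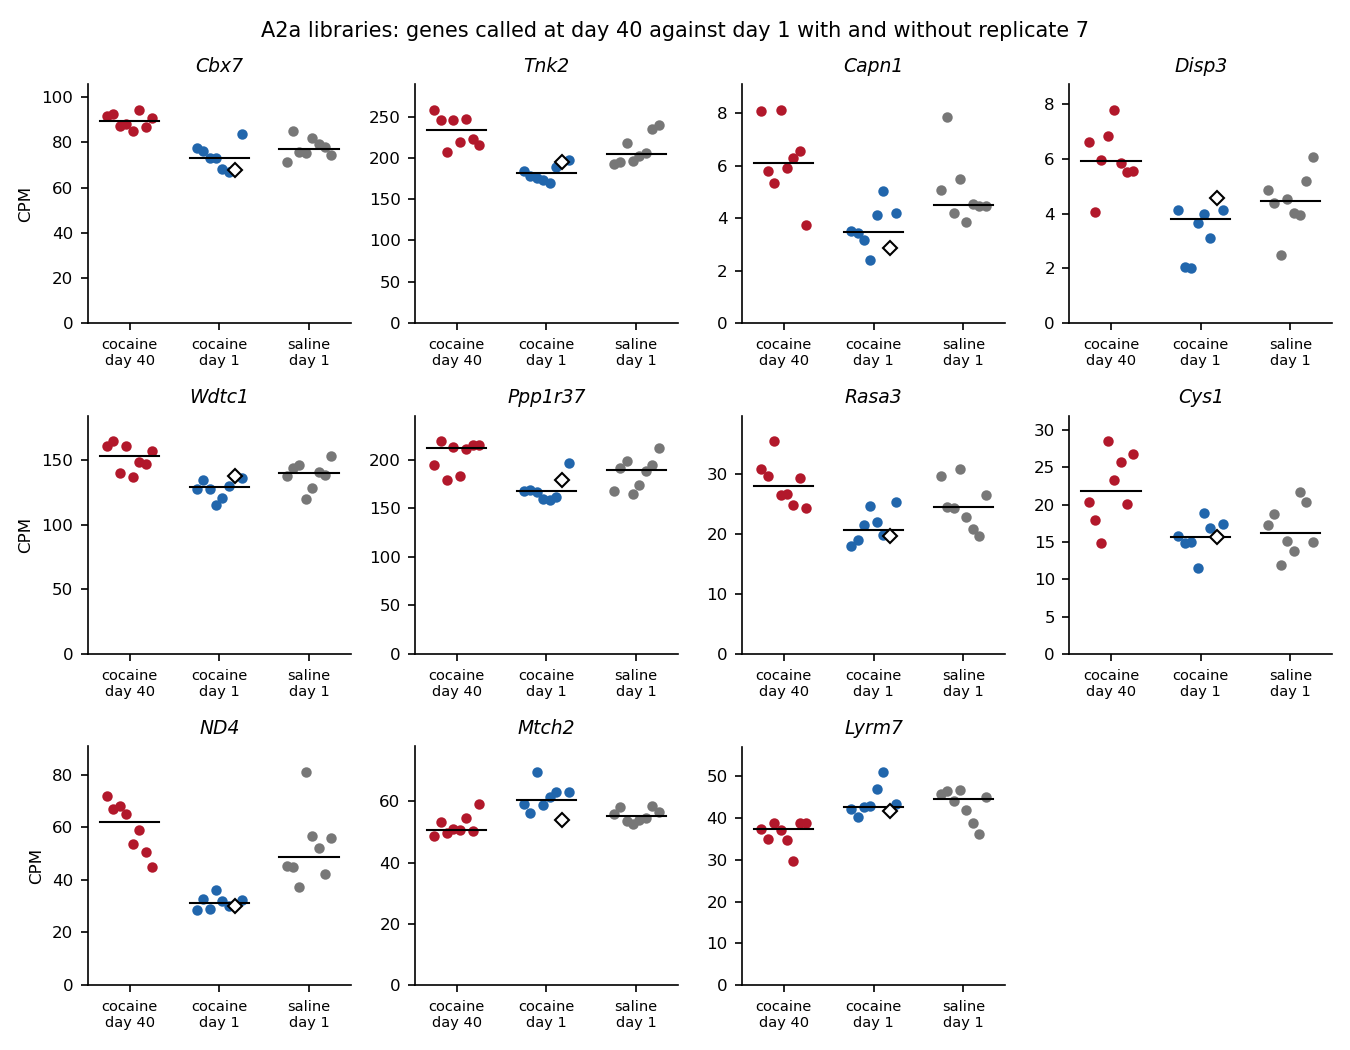
CPM by library (vertical axes from 0) for 11 named genes called at day 40 against day 1 both with and without day 1 replicate 7, in cocaine day 40, cocaine day 1 and saline day 1 A2a libraries. Points are libraries, lines are medians and the open diamond is replicate 7; for Cbx7, Tnk2, ND4 and Lyrm7 the day 40 and day 1 points do not overlap, and the saline medians lie between those of the cocaine groups in each panel but that of Lyrm7.

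Without replicate 7 of day 1, 19 of the 41 calls were lost and 22 were kept. Leaving out 1 other A2a cocaine library kept from 28 calls (without day 40 replicate 1) to 41 (without day 1 replicate 2). In 13 of the 19 lost calls, replicate 7 lay above the 7 other day 1 libraries. Of these 19, 14 were falls, and 12 of the falls were beyond −4 on the log2 scale. In those 12 genes replicate 7 read between 22.9 and 3624 CPM, while no other day 1 library exceeded 7.6 CPM. Rpph1, the RNA component of ribonuclease P, had 270.8 CPM in replicate 7 and at most 1.05 CPM in the other day 1 libraries, beside 0.202, 0.394 and 1.27 CPM at day 40. Its log2 difference was −5.81 with replicate 7 (adjusted p = 0.00642, edgeR) and 0.04 without it (adjusted p = 0.991). LOC120095433, the small nucleolar RNA SNORA48, had 22.9 CPM in replicate 7 and at most 0.169 CPM in the others, and Zbtb20, a zinc finger transcription factor, 62.9 and at most 3.21 CPM. Other named calls were lost with little change in size. Rtn2, a reticulon of the endoplasmic reticulum, had a log2 difference of 0.26 with and 0.24 without replicate 7 (adjusted p = 0.0191 and 0.0549), Rassf1, a Ras-associated tumour suppressor, 0.25 and 0.22 (adjusted p = 0.0235 and 0.0848), and Irag2, a protein linked to the inositol trisphosphate receptor, 0.38 and 0.34 (adjusted p = 0.0274 and 0.0848).

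Leaving that library out added 13 calls, 2 that rose and 11 that fell, and 8 of them have a name. Tubb2a, a beta tubulin, was at 112, 122 and 141 CPM at day 40 and at 136, 161 and 180 CPM at day 1, where replicate 7 had 138 CPM. Its log2 difference was −0.33 with replicate 7 (adjusted p = 0.0512, edgeR) and −0.36 without it (adjusted p = 0.0389). Cabin1, a calcineurin-binding repressor, had a difference of 0.23 with and 0.25 without replicate 7 (adjusted p = 0.0574 and 0.0447), and Eif4a1, the helicase of the cap-binding translation initiation complex, −0.13 and −0.16 (adjusted p = 0.131 and 0.0363). RGD1359290, annotated with a ribosomal L22 domain, was at 3.73, 20.9 and 48.6 CPM at day 40, and at day 1 replicate 7 had 30.9 CPM while the 7 others had at most 3.95 CPM; 4 day 40 libraries lay above each day 1 library and saline libraries ran from 2.30 to 39.4 CPM. The genes of this paragraph were chosen after their values were seen.

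**Figure D2:**
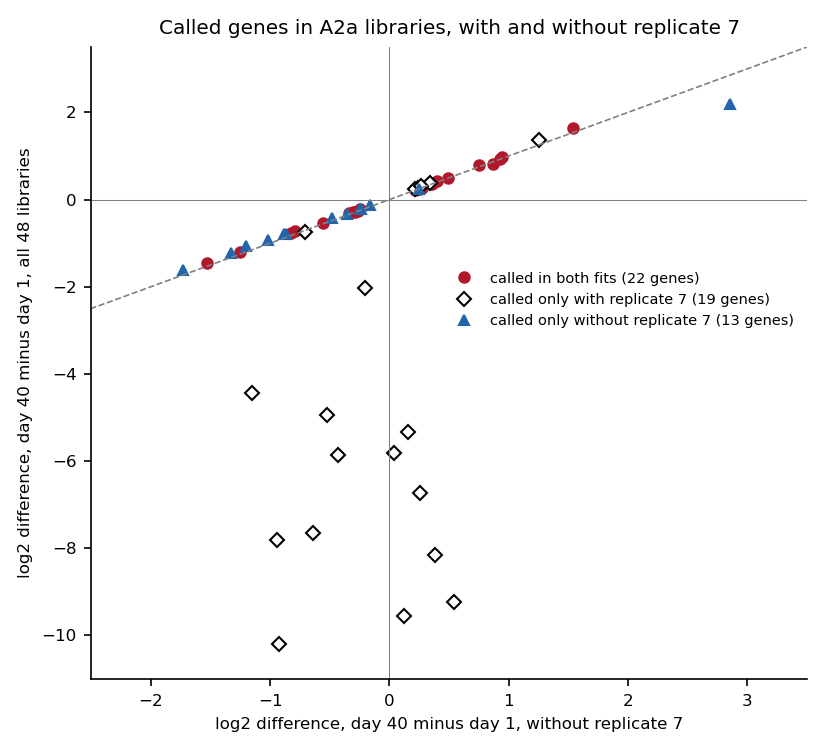
Log2 difference, day 40 minus day 1, with all 48 libraries (vertical axis) against the same without day 1 replicate 7 (horizontal axis) for the 54 genes called in either fit. Points are genes and the dashed line marks equal values; the 22 genes called in both lie near the line, and 13 of the 19 called only with replicate 7 lie far below it, at −2.04 or lower with that library.

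Receptors and peptides that define A2a neurons did not pass. Adora2a, the adenosine A2a receptor, was at 760, 864 and 1050 CPM at day 40 and at 741, 835 and 1023 CPM at day 1, a log2 difference of 0.04 ± 0.14 (adjusted p = 0.952, edgeR). Drd2 differed by 0.01 ± 0.12 and had medians of 670 CPM at day 40 and 657 CPM at day 1. Penk, the proenkephalin gene, had medians of 8389 CPM at day 40 and 8910 CPM at day 1 (−0.08 ± 0.13, adjusted p = 0.879). Gpr6, an orphan receptor of indirect pathway neurons, differed by −0.05, and Ppp1r1b, which encodes the phosphatase inhibitor DARPP-32, by −0.04. The groups overlapped for each of these genes. Of 27 dopamine and cAMP signalling genes, 0 passed. The same held for 14 adenosine and purine genes, 21 opioid and other neuropeptide genes and 17 regulators of G-protein signalling. Over all genes tested 0.263% passed, so 0 in lists of these sizes is close to the background. An unadjusted edgeR p under 0.05 was reached by 7 of the 21 neuropeptide genes, beside 1641 of all 15580 genes. It was reached by 1 gene each of the dopamine and adenosine lists and by 0 regulators of G-protein signalling. Within the neuropeptide list, Nts, neurotensin, was at 45.8, 90.8 and 118 CPM at day 40 and 40.2, 55.9 and 81.9 CPM at day 1 (0.57, adjusted p = 0.337), and Tac3, a tachykinin precursor, at 54.7, 69.3 and 96.8 CPM at day 40 and 77.6, 92.3 and 111 CPM at day 1 (−0.37, adjusted p = 0.212).

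Calcium-permeable AMPA receptors accumulate at the glutamate synapse during incubation in this region. That is a change in receptor protein at the synapse, which RNA on ribosomes does not measure. Of the genes of that synapse, 15 AMPA receptor genes, 7 NMDA receptor subunits and 10 metabotropic receptor and Homer genes gave 0 calls. Over all genes tested 0.263% were called, so 0 calls in lists this small is close to the background. Gria1, the AMPA subunit GluA1, was at 75.7, 90.4 and 114 CPM at day 40 and at 79.7, 89.7 and 188 CPM at day 1, where the highest value was replicate 7 and the other libraries reached 101 CPM. Its log2 difference was −0.13 with replicate 7 and 0.04 without it (adjusted p = 0.772 and 0.944, edgeR). Gria2, the GluA2 subunit, was at 400, 428 and 473 CPM at day 40 and at 402, 477 and 521 CPM at day 1 (−0.10, adjusted p = 0.605). Gria4, the GluA4 subunit, was at 47.2, 62.3 and 70.9 CPM at day 40 and at 59.0, 74.9 and 79.8 CPM at day 1 (−0.27, adjusted p = 0.263, and the same size without replicate 7). Replicate 7 stood high in several of these genes. Grm5, the metabotropic receptor mGlu5, had 120.5 CPM in replicate 7 and at most 14.5 CPM in the 7 others, beside 7.02 to 13.8 CPM at day 40, and Grin2a, the GluN2A subunit, 26.3 and at most 2.80 CPM, beside 1.27 to 3.58 CPM at day 40. The log2 difference of Grm5 was −1.13 with and −0.04 without that library, and that of Grin2a −0.87 and 0.48. The 14 GABA receptor subunits also gave 0 calls, and their median of −0.21 became −0.09 without replicate 7.

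**Figure D3:**
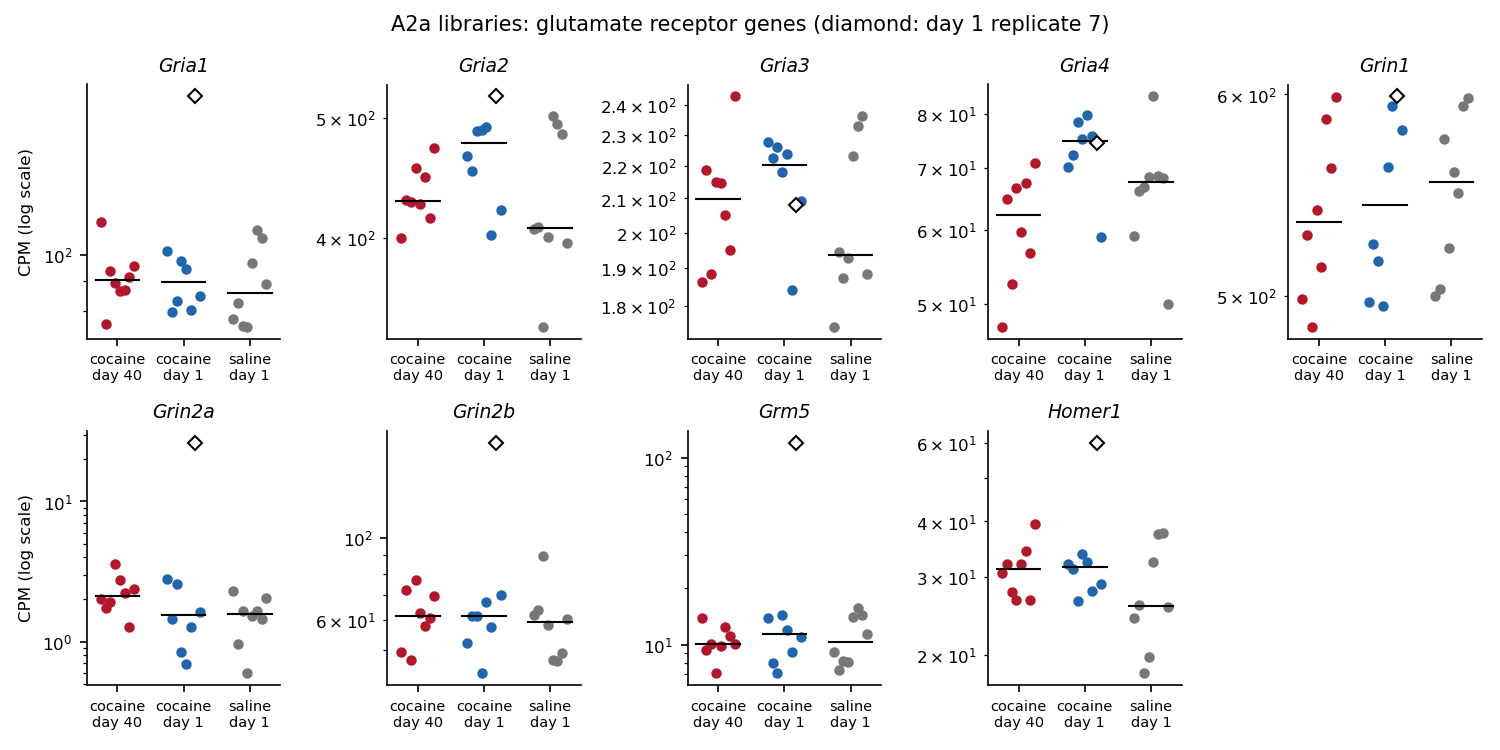
CPM by library on log axes for AMPA, NMDA and metabotropic glutamate receptor genes and Homer1 in cocaine day 40, cocaine day 1 and saline day 1 A2a libraries. Points are libraries, lines are medians and the open diamond is day 1 replicate 7, which lies far above every other library drawn for Gria1, Grin2a, Grin2b, Grm5 and Homer1, while the remaining libraries overlap between groups.

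No gene of the activity, endoplasmic reticulum stress or clock lists passed, where 0.263% of all genes tested did. Of 17 rapid immediate early genes, 14 had a log2 difference above 0, with a median of 0.13. That median was 0.03 without day 40 replicate 8 and 0.27 without day 1 replicate 4. Fosb, an AP-1 factor, was at 27.5, 43.9 and 67.1 CPM at day 40 and at 25.1, 31.2 and 49.9 CPM at day 1 (log2 difference 0.43, adjusted p = 0.261, edgeR), and Arc, a regulator of AMPA receptor trafficking, at 60.0, 111 and 186 CPM at day 40 and 47.1, 83.3 and 144 CPM at day 1 (0.39, adjusted p = 0.634). Among 25 endoplasmic reticulum chaperone and unfolded protein response genes, 20 were above 0, with a median of 0.07 and 0 calls. Hspa5, the chaperone BiP, was at 543, 611 and 900 CPM at day 40 and at 413, 530 and 696 CPM at day 1 (0.34, adjusted p = 0.181). In the D1 neurons 5 genes of the same list rose, beside 0.7% of all genes. There 21 of the 25 were above 0, with a median of 0.12. The interaction of neuron type with day passed for 0 genes of the list, beside 0.0642% of all genes. Of 18 clock and clock output genes, 9 were above 0 and 0 passed. An unadjusted edgeR p under 0.05 was reached by 8 of the 18, and by 1641 of all 15580 genes. In the same count stood 7 of the 25 endoplasmic reticulum genes and 2 of the 17 rapid immediate early genes. Arntl, the core clock factor BMAL1, was at 42.1, 46.2 and 50.4 CPM at day 40 and at 42.8, 54.9 and 66.4 CPM at day 1 (−0.29, adjusted p = 0.0874), and Nfil3, a clock output repressor, at 13.0, 16.4 and 18.4 CPM at day 40 and 8.56, 12.4 and 16.3 CPM at day 1 (0.38, adjusted p = 0.102). With all libraries, 3 of the 56 lists held a called gene, 1 each, among them the chromatin and mitochondrially encoded lists.

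**Figure D4:**
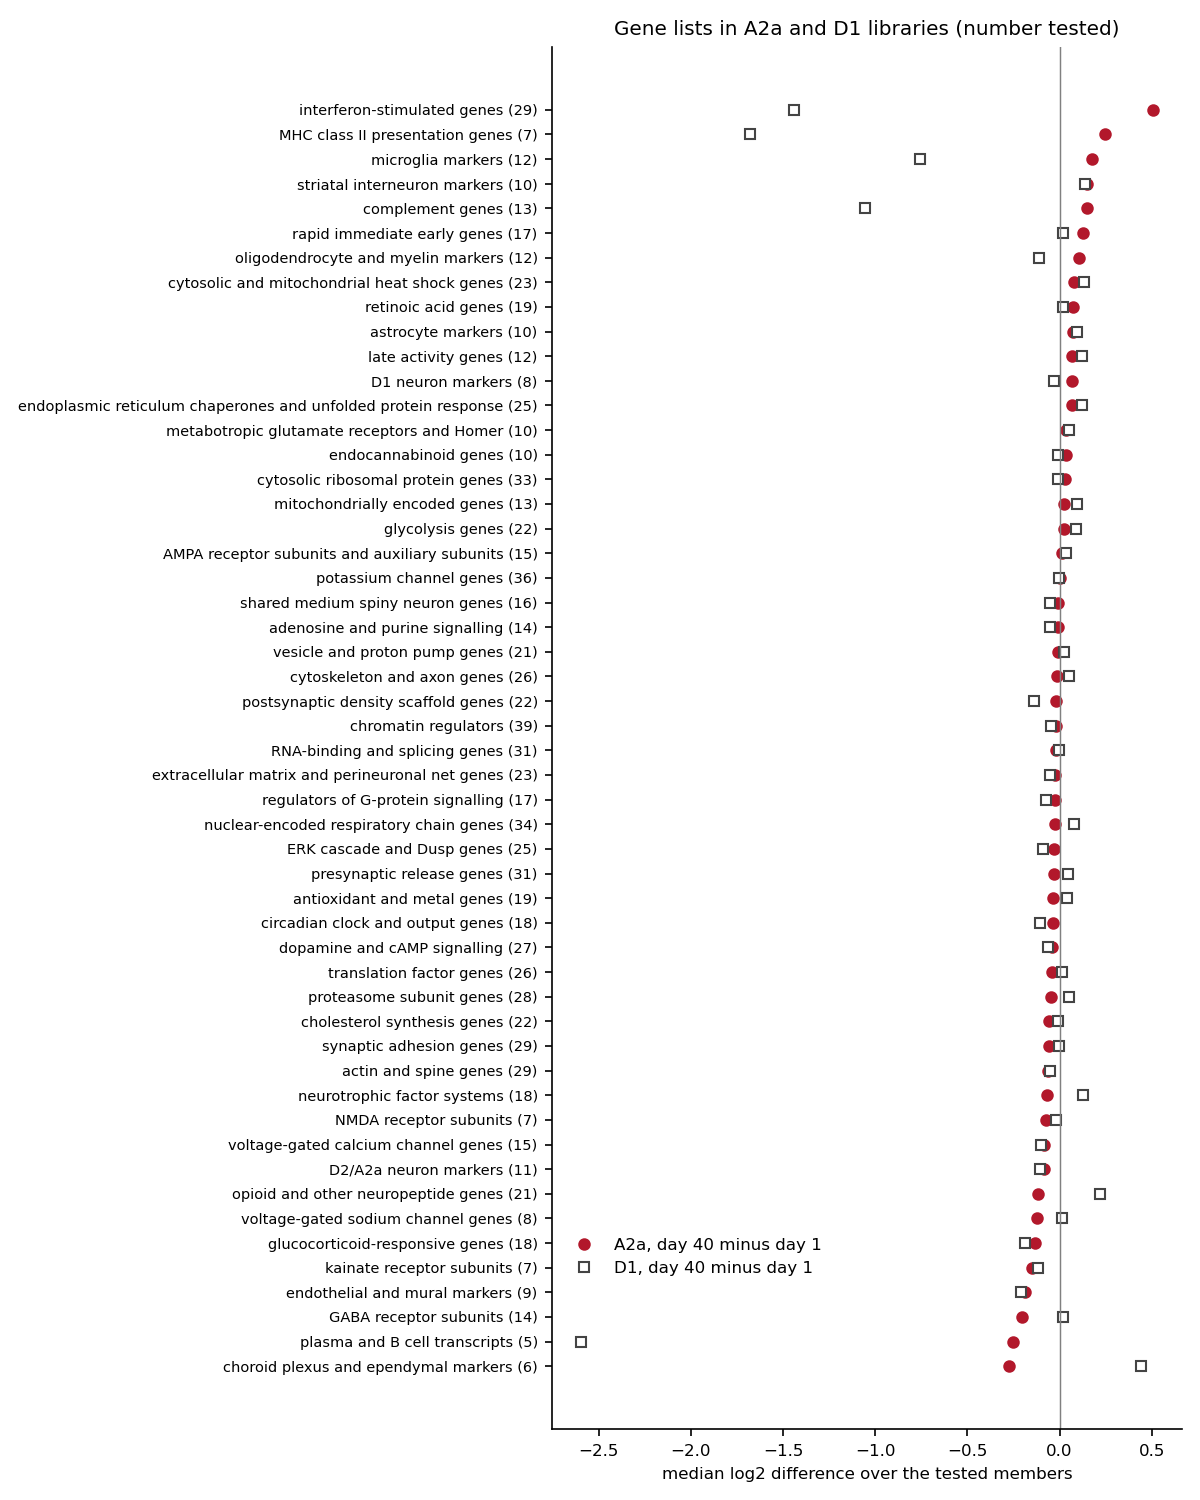
Median log2 difference, day 40 minus day 1 (horizontal axis), over the tested members of each list with at least 5 of them, with the number tested in parentheses, in A2a (filled circles) and D1 libraries (open squares). Most A2a medians lie close to 0, and the interferon-stimulated list stands highest at 0.51, where D1 has −1.44.

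None of the interferon-stimulated genes and none of the microglia markers passed in A2a neurons, beside 0.263% of all genes. Their list medians changed in size with single libraries and stayed above 0 in all 16 fits that left out 1 library. In bulk samples such as these, fewer cells of a type and less RNA per cell cannot be told apart. Of 29 interferon-stimulated genes tested, 28 were above 0, with a median log2 difference of 0.51 and 0 calls. Their summed level was 214, 465 and 740 CPM (lowest, median and highest) at day 40, 116, 306 and 614 CPM at day 1 and 199, 353 and 1090 CPM in saline rats. The groups overlapped broadly, and the lowest day 1 library was replicate 1. The median of the list was 0.42 without replicate 7, 0.38 without day 1 replicate 1 and 0.35 without day 40 replicate 1, and it was 0.61 without day 1 replicate 4. Xaf1, an interferon-induced promoter of cell death, was at 3.92, 5.89 and 9.48 CPM at day 40 and at 2.29, 3.42 and 6.73 CPM at day 1 (0.68 ± 0.19, adjusted p = 0.0948, edgeR).

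Of 12 microglia markers, 12 had a log2 difference above 0 and 0 passed. Their median was 0.18, or 0.09 without replicate 7, 0.06 without day 1 replicate 1 and 0.33 without day 1 replicate 4. Their summed level was 285, 494 and 630 CPM at day 40 and 187, 417 and 679 CPM at day 1. Cx3cr1, the microglial chemokine receptor, was at 3.39, 6.83 and 11.8 CPM at day 40 and at 2.44, 4.82 and 6.56 CPM at day 1 (0.53, adjusted p = 0.314, edgeR). C3, the central complement component, was at 40.9, 85.7 and 159 CPM at day 40 and at 6.41, 62.1 and 186 CPM at day 1, with the lowest value in replicate 1 (0.32, adjusted p = 0.87). All 7 genes of class II antigen presentation were above 0 (median 0.25), and that median was −0.01 without day 40 replicate 1 and 0.76 without day 1 replicate 4. The part of these cells in the other results was not tested. Astrocyte markers summed to 1636, 2077 and 2543 CPM at day 40 and 1735, 1861 and 2156 CPM at day 1, and oligodendrocyte and myelin markers to 3761, 4842 and 6267 CPM at day 40 and 3771, 4307 and 5624 CPM at day 1, with 0 calls in either list. Npy was at 0, and Tac1, Pvalb, Pecam1 and Igkc were not analysed here.

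**Figure D5:**
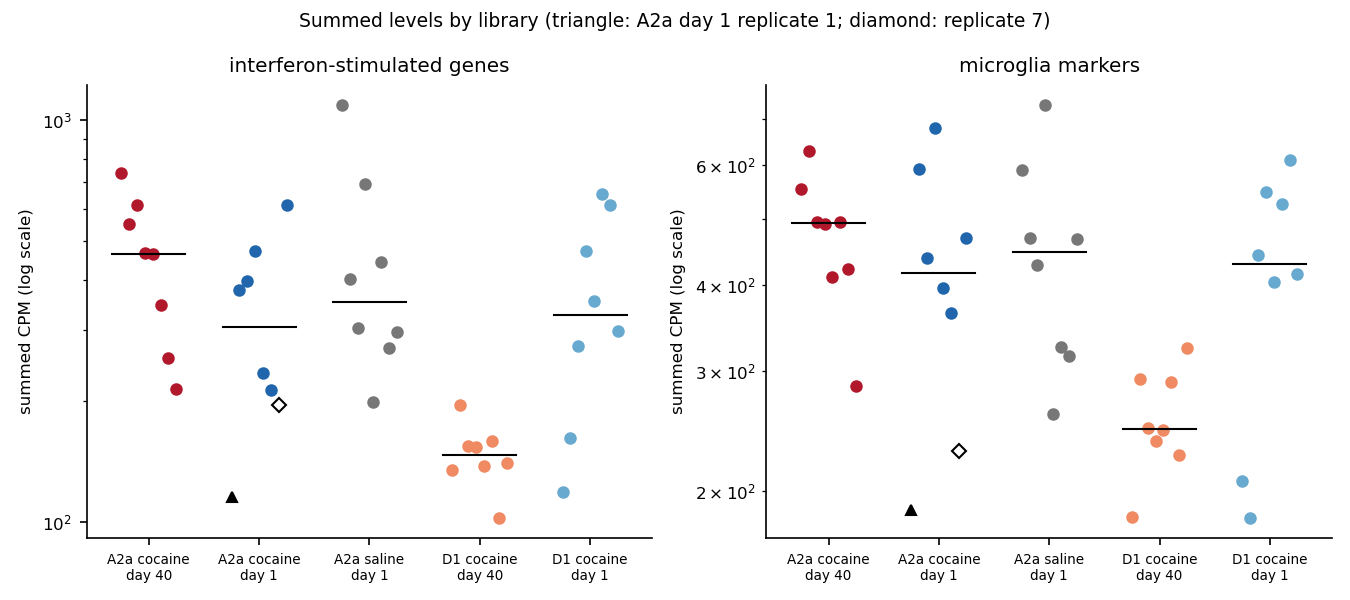
Summed CPM by library on log axes for the interferon-stimulated genes (left) and the microglia markers (right) in A2a cocaine day 40, A2a cocaine day 1, A2a saline, D1 cocaine day 40 and D1 cocaine day 1 libraries. Points are libraries and lines are medians, with A2a day 1 replicate 1 as a triangle and replicate 7 as a diamond. Day 40 and day 1 overlap in A2a and in D1. The D1 day 40 libraries lie low, as do D1 day 1 replicates 1 and 2.

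In the same model, 41 genes were called between day 40 and day 1 in A2a neurons, and in D1 neurons 289 of 15580 (1.85%), of which 109 rose (0.7%) and 180 fell (1.16%). A count past a threshold in each type does not test a difference between them, and the interaction of neuron type with day passed in 10 genes (0.0642%), in 8 without replicate 7, and in 0 when only the groups compared were fitted, where 1502 genes had an unadjusted p under 0.05. The A2a and D1 calls shared 4 genes, Cbx7, LOC680121, Cys1 and Rassf1, which are 9.76% of the A2a calls and 1.38% of the D1 calls, and the 4 had the same sign. Cbx7 rose by 0.28 in D1 neurons (adjusted p = 0.000277, edgeR), close in size to its rise in A2a neurons. The log2 difference of LOC680121 was 1.40 in D1 neurons (adjusted p = 0.0101), and that of Cys1 was 0.49 (adjusted p = 0.00996). Of the 22 genes called with and without replicate 7, 15 had the same sign in D1 neurons, 11 of the 12 rises and 4 of the 10 falls. Tnk2 differed by 0.16 (adjusted p = 0.133) and ND4 by 0.32 (adjusted p = 0.473) in D1 neurons, and neither passed the interaction test (adjusted p = 0.344 and 0.44).

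In the interferon-stimulated list, genes fell in D1 neurons and none passed in A2a neurons. A2a neurons had 28 of 29 above 0 and 0 calls, beside calls in 0.263% of all genes. D1 neurons had 29 of 29 below 0, a median of −1.44 and 15 falls, beside falls in 1.16% of all genes. The D1 groups overlapped in the summed level. D1 day 1 replicates 1 and 2, at 118 and 162 CPM, lay within the D1 day 40 range of 102 to 195 CPM. Over all genes the interaction passed for 0.0642%. The interaction passed for 1 gene of that list, Xaf1, with D1 values of 3.17, 4.73 and 6.47 CPM at day 40 and 5.62, 6.91 and 10.1 CPM at day 1 (interaction 1.32 ± 0.26 on the log2 scale, adjusted p = 0.0163, edgeR). It also passed for Zc3hav1, an antiviral zinc finger protein, which was at 8.56, 12.1 and 28.3 CPM at day 40 and 2.76, 7.80 and 15.4 CPM at day 1 in A2a neurons (0.73, adjusted p = 0.322), and at 2.85, 3.23 and 4.99 CPM at day 40 and 2.81, 9.76 and 14.7 CPM at day 1 in D1 neurons (−1.48, adjusted p = 0.00622). Neither interaction passed when only the groups compared were fitted.

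No A2a gene was called between day 40 and saline, and few were between day 1 and saline. Day 40 against saline gave 0 calls in edgeR (0% of 15580 genes, smallest adjusted p 0.141, with 838 genes at an unadjusted p under 0.05). Day 1 against saline gave 11 (0.0706%), and 0 without replicate 7 (0%, smallest adjusted p 0.166, 779 at an unadjusted p under 0.05). Cbx7 differed from saline by 0.21 at day 40 (adjusted p = 0.141) and by −0.08 at day 1 (adjusted p = 0.857), and Tnk2 by 0.14 at day 40 (adjusted p = 0.824) and −0.21 at day 1 (adjusted p = 0.267). The saline median was between the day 40 and the day 1 median for 20 of the 22 genes called with and without replicate 7. These genes were chosen for the difference between the cocaine groups, so that count is a description with no test. The saline rats were all killed at day 1, so a change with age or time in the absence of cocaine cannot be told apart from withdrawal.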

How the data were processed

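RNA from ribosome pull-downs (TRAP) of rat nucleus accumbens was sequenced in 48 libraries, treated as 48 animals, the number of brains in the labels. The deposited table holds whole-number counts per gene for 32883 identifiers, not normalized by the authors. Per the submitters' processing notes, the tools were STAR, SAMtools, Trimmomatic and bcl2fastq and the genome Rnor_6.0. Neither their versions nor the counter nor a strand setting is stated there, so reads of genes that overlap or lie antisense are not separable. Each row carries a gene identifier, of which 12500 have no gene name in the table, and the share of rows with no identifier was 0%.

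Groups followed the sample titles. Genes were kept with edgeR 4.0.16 (R 4.3.3) by its expression filter at a minimum count of 10, which left 15580, and library sizes were adjusted by TMM factors. A robust quasi-likelihood model with 1 term for each of the 6 groups was fitted to the 48 libraries, and p-values were adjusted by Benjamini-Hochberg over all genes tested at 0.05. SE is the size of the log2 difference divided by the square root of F. The alternatives were DESeq2 1.42.0 and its size factors, limma 3.58.1 voom with quality weights, other filters, only the groups compared, a replicate block and each library left out. The steps were tested on simulated counts. Of 56 pairs of libraries within the A2a cocaine groups, 0 held identical counts.

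The named genes were the 10 largest rises and falls among called named genes averaging 3 or more in log2 CPM, the 6 smallest p-values of either direction, up to 3 called members per list, the 5 named genes with the smallest interaction p and a panel of 39 genes. The members, the 56 lists and the rule were chosen with earlier results of these data known. Sequences were matched by symbol to RefSeq (GRCr8), which is not the build of the counts, so its coordinates belong to the printed windows alone. Some items are not reported here.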

Additional observations from a re-analysis of the deposited data

Results flagged for a closer look

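Dixon's test was applied to 120 groups of 8 libraries, the named genes and library totals at A2a day 40 and day 1. Of these, 21 had a library far from the others. Chance flags about 1 in 20 groups. Some genes, such as Rpph1 and LOC120095433, were named for calls that rested on replicate 7, so that rate is no yardstick for them. Flagged values in day 1 replicate 7 numbered 10. They were the library total of 5.294 M counts, Rpph1 at 270.8 CPM, LOC120095433 at 22.88, Grm5 at 120.5, Oprm1 at 4.958, Grin2a at 26.31, Grin2b at 181.3, Gria1 at 188.2, Oprd1 at 5.53 and Homer1 at 60.26 CPM, each of these gene values above the 7 other day 1 libraries. Oprm1 and Oprd1 are the mu and delta opioid receptors, Grin2b encodes the GluN2B subunit and Homer1 a postsynaptic scaffold. None of these receptor genes passed at day 40 against day 1 with that library in or out of the edgeR fit.

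Other libraries stood apart in fewer genes. At day 40, replicate 1 had 28.26 CPM of Zc3hav1, 28.71 CPM of Mx1, an interferon-induced GTPase, and a total of 55.1 M counts. Replicate 6 had the lowest Lyrm7, 29.67 CPM, and replicate 8 the highest Dbp, a clock output factor, 662.5 CPM. At day 1, replicate 1 had the highest RGD2320734, 17.38 CPM, and replicate 4 the highest Fos, 34.11 CPM, Hapln4, a perineuronal net link protein, 12.52 CPM, and Bdnf, 0.2895 CPM, a level that rests on few counts. Replicate 8 had the lowest Gria4, 59.02 CPM, and replicate 6 the lowest Gria3, 184.1 CPM.

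The effect of day differed between A2a and D1 neurons by the interaction test in 5 genes given here. The log2 interaction was 0.3443 for Wdtc1, 1.323 for Xaf1 and 2.211 for Zc3hav1. ENSRNOG00000048402, with no name in the table, was at 242, 716 and 1571 CPM (lowest, median and highest) at day 40 and 1.00, 364 and 2926 CPM at day 1 in A2a neurons, and at 0, 0 and 0.174 CPM at day 40 and 0, 144 and 822 CPM at day 1 in D1 neurons (interaction 12.89, adjusted p = 0.00333, edgeR). ENSRNOG00000049829 was at 102, 319 and 621 CPM at day 40 and 0.430, 162 and 1439 CPM at day 1 in A2a neurons, and at 0, 0.276 and 0.986 CPM at day 40 and 0.230, 79.4 and 417 CPM at day 1 in D1 neurons (interaction 8.409, adjusted p = 0.0154). Both fitted values depend on libraries near 0 and are no bound.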

How the results depend on the processing

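The count of A2a genes called at day 40 against day 1 was 41, and it was 47 with DESeq2's size factors, 57 without a filter and 56 at a mean CPM of at least 1. It was 69 by DESeq2, 20 by limma-voom with quality weights, 5 when only the 16 libraries were fitted and 8 in that fit without day 1 replicate 7, a setting added after the data were seen. Of the 41 calls, DESeq2 kept 29, limma-voom 16 and the fit of 16 libraries 5. The same 41 calls were kept in number 41 with DESeq2's size factors, 39 without a filter and 40 at the mean CPM filter. Leaving out each library gave 30 to 69 calls, with 65 without day 1 replicate 2 and 69 without day 1 replicate 8. Replicate numbers did not pair the samples (8 pairs, correlations of −0.0129 to 0.158, 3 of 8 best with their own number), and with a replicate block in the fit of 16 libraries 2 genes passed, LOC680121 and ND4. The D1 count of 289 was 519 by DESeq2, 543 by voom, 136 with only the groups compared and 99 with the replicate block, and 157 to 412 without 1 library. The 10 interaction calls were 121 by DESeq2, 0 with only the groups compared, 0 with the replicate block (1471 genes at an unadjusted p under 0.05) and 0 with only the groups compared without replicate 7 (1759), and 6 to 74 without 1 library, 74 without D1 day 1 replicate 2. The log2 difference of Rpph1 of −5.81 turned to 0.04083 by DESeq2, 0.04122 without day 1 replicate 7 and 0.03976 in the 16-library fit without it. Over the fits that left out 1 library the difference was −6.067 to 0.04122, and the upper end was the fit without replicate 7, its high library. Over the named genes and settings, 1306 results were the same, 75 lost the call, 1 gained it, 19 moved and 3 turned round. Same means that a called gene kept call and direction, or that an uncalled gene stayed uncalled within 1 SE of its main value. Signs of uncalled genes were not checked, and those that moved stayed uncalled but lay farther off. Cbx7, Tnk2, Capn1, Mtch2, Lyrm7, Disp3, Ppp1r37 and LOC680121 passed in all 16 fits that left out an A2a cocaine library. At 5.3 M counts, replicate 7 limits what can be read from genes below a few CPM.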

Other observations

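Structural gene groups not described above gave 0 calls between day 40 and day 1 in A2a neurons, beside 0.263% of all genes. Among 29 synaptic adhesion genes 6 were above 0 (median log2 difference −0.06), and 10 without day 1 replicate 7 (median −0.03). Among 28 proteasome subunits 7 were above 0 (median −0.05), and 3 without that library (median −0.08). Among 33 cytosolic ribosomal protein genes 24 were above 0 (median 0.03), and 19 without it (median 0.0029). Of 8 voltage-gated sodium channel genes 2 were above 0 (median −0.12), and 4 without day 1 replicate 7 (median 0.03). Of 22 postsynaptic density scaffold genes 11 were above 0 (median −0.02), and 15 without it (median 0.10). Aldh1a1, a retinaldehyde dehydrogenase, was at 1.87, 2.67 and 4.15 CPM at day 40 and at 2.35, 3.24 and 3.62 CPM at day 1 (−0.15, adjusted p = 0.868, edgeR). Tet3, a DNA demethylation enzyme of the chromatin list, had a difference of −1.57 with replicate 7 and 0.07 without it, and it was chosen after its values were seen.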
